A study of Mus musculus with 2 samples.

Results

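The neuregulin and ErbB receptor system was followed through 10 genes in heart RNA, of 55536 mouse genes in the tables. They were taken by name: the ligands Nrg1, Nrg2, Nrg4, Hbegf and Btc, the receptors Egfr, Erbb2, Erbb3 and Erbb4, and the receptor inhibitor Errfi1. All 10 were found in both quantifications of both libraries. Whole hearts of female B6CASTF1/J mice, the hybrid of C57BL/6J and CAST/EiJ, had been collected at 36 days, and each library was made from 300 ng of total RNA with added spike-in RNAs. The samples carry no treatment and form 1 group of 2 libraries, called replicate 1 and replicate 2 after their labels. The labels give separate biosamples as biological replicates but the same donor identifier for both, and p-values comparing them measure only the spread between reads of these samples.

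The neuregulins and the other ligands of this family share an EGF-like domain that binds ErbB receptor tyrosine kinases at the cell surface. Ligand binding pairs the receptors, which then phosphorylate each other and pass the signal to the PI3 kinase and AKT and the RAS and MAP kinase pathways. In heart, neuregulin 1 from endothelial and endocardial cells acts on cardiomyocytes through Erbb4 and its partner Erbb2, a receptor with no known ligand of its own, and this signal is needed for trabeculation of the embryonic ventricle and for maintenance of the adult heart.

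The libraries held 39053339 expected counts in replicate 1 and 38332179 in replicate 2, and the 10 genes together took 3532 and 3641 of them. All 5 cardiomyocyte markers were detected, with a summed level of 16484 TPM in replicate 1 and 16992 TPM in replicate 2, led by the myosin heavy chain Myh6, so the tissue label was met. The libraries differed in other markers. The 4 erythroid genes summed to 24343 and 7896 TPM and the 5 white adipocyte genes to 56.6 and 32.4 TPM. The 5 brown adipocyte genes summed to 1181 and 1030 TPM (97.5 and 29.9 TPM without Cox8b, which had 1084 and 999.6 TPM). The 9 immediate early genes, which respond to stimulation within minutes, summed to 62.3 and 108 TPM, of which Nr4a1 alone had 4.01 and 35.48 TPM. In this bulk tissue, fewer cells of a type and less RNA per cell cannot be told apart.

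Receptors and the inhibitor stood above the neuregulins (the plot of levels by gene). Levels are in TPM, a transcript abundance that divides by length and so can be set side by side between genes. Detection meant 1 TPM or more in replicate 1 and in replicate 2. In all, 6 of the 10 genes were detected: Erbb2, Erbb3, Erbb4, Egfr, Hbegf and Errfi1. Among all 22028 protein-coding genes 11055 were, or 50.2%. Nrg1, Nrg2, Nrg4 and Btc were not, although all 4 had reads in each library. Detection of the low genes depended on the estimate and the threshold: the second quantification detected 8 of the 10, with Nrg2 and Nrg4 added, and a threshold of 0.5 TPM gave 8 and one of 2 TPM gave 5. By mean level the order was Errfi1, Erbb4, Hbegf, Erbb2, Erbb3, Egfr, Nrg4, Nrg1, Btc and Nrg2. In the second quantification Hbegf (mean 4.80 TPM) stood above Erbb4 (mean 4.55 TPM), and the last 4 ran Nrg4, Nrg2, Nrg1 and Btc. In the first quantification the ranges of the 2 libraries met or overlapped for Errfi1 and Erbb4, for Erbb4 and Hbegf, for Erbb3 and Egfr, and for each neighbouring pair among the last 4, so the order within those pairs does not exceed the spread. They did not overlap between Hbegf and Erbb2, Erbb2 and Erbb3, or Egfr and Nrg4.

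**Figure D1:**
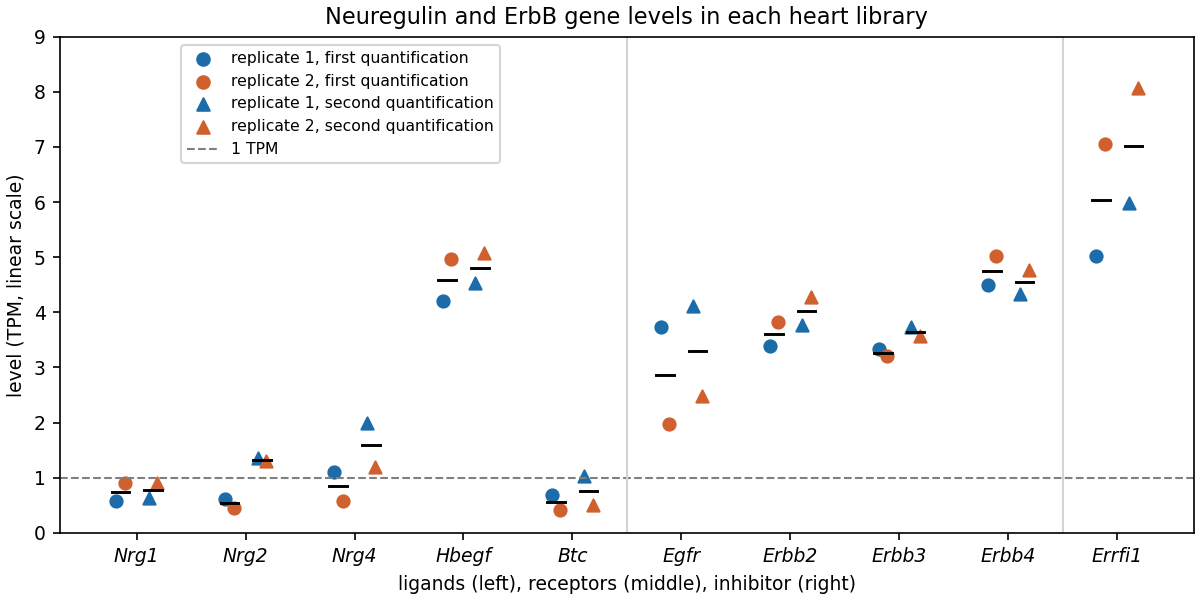
Level of each gene in TPM on a linear axis, with ligands on the left, receptors in the middle and the inhibitor Errfi1 on the right. Circles are the first and triangles the second quantification, blue is replicate 1 and orange replicate 2, black bars are means and the dashed line is 1 TPM; Nrg1, Nrg2, Nrg4 and Btc lie at or below 1.99 TPM, while Errfi1 reaches 8.06 TPM.

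The most abundant ligand was Hbegf (ENSMUSG00000024486.6, heparin-binding EGF-like growth factor), a ligand of Egfr and Erbb4 that is made as a membrane protein and cut free by ADAM proteases. It lies on the minus strand of chromosome 18 from 36504927 to 36515805 in mm10, as do all positions given. It was at 4.20 TPM in replicate 1 and 4.96 TPM in replicate 2 (mean 4.58 ± 0.537, SD, n = 2, as for all levels), from 302 and 331 counts. These put it at the 49.2th and 53.0th percentile of protein-coding genes with a TPM above 0, near the middle of that distribution. It took 47.2% of the summed TPM of 11 EGF-family ligands in replicate 1 and 56.2% in replicate 2. The second quantification gave Hbegf 4.54 and 5.07 TPM.

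The neuregulins were each low, at or under 1.99 TPM in both quantifications. Nrg1 (ENSMUSG00000062991.7, chromosome 8, 31814551 to 32884029, minus strand) encodes neuregulin 1, the ligand of Erbb3 and Erbb4. It was at 0.57 TPM in replicate 1 and 0.90 TPM in replicate 2 (0.735 ± 0.233), from 57 and 74 counts with 95% Poisson intervals of 43.2 to 73.9 and 58.1 to 92.9. These intervals, like all in this text, cover counting error only, and the pair overlaps. The second quantification gave Nrg1 0.63 and 0.91 TPM. The posterior mean TPM, another estimate in the deposited tables, was 1.19 and 1.51 TPM, above 1 TPM in both libraries. The posterior mean also gives a level to transcripts with 0 counts, such as Nrg1-209, which limits its use for low genes. Nrg4 (ENSMUSG00000032311.17, chromosome 9, 55220222 to 55326844, minus strand), a ligand of Erbb4 known as a product of brown fat, had 1.11 and 0.58 TPM (0.845 ± 0.375), from 48 and 26 counts. It passed 1 TPM in replicate 1 alone in the first quantification, but the second gave 1.99 and 1.20 TPM and the posterior mean 1.86 and 1.33 TPM, above 1 TPM in both libraries. Nrg2 (ENSMUSG00000060275.13, chromosome 18, 36017652 to 36197380, minus strand), a further ligand of Erbb3 and Erbb4, had the fewest counts of the 10, with 21 and 15 and levels of 0.62 and 0.45 TPM (0.535 ± 0.120). The second quantification gave Nrg2 1.36 and 1.30 TPM, and the posterior mean 1.05 and 0.83 TPM. In the second quantification 0.733 and 0.770 TPM of this came from Nrg2-205, a transcript of 453 bases, on 3.32 and 3.37 counts. Its detection there rests on those few counts.

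Betacellulin, the product of Btc (ENSMUSG00000082361.6, chromosome 5, 91357261 to 91402994, minus strand), binds Egfr and Erbb4. Btc was at 0.69 TPM in replicate 1 and 0.42 TPM in replicate 2 (0.555 ± 0.191), from 55 and 32 counts. By posterior mean it had 1.01 and 0.69 TPM. Of the other 6 ligands of the family, Egf and Tgfa were above Btc in both libraries and the other 4 below it. Egf had 0.71 and 0.85 TPM, Tgfa 0.90 and 0.52 TPM, Epgn 0.08 and 0.12 TPM and Ereg 0.02 and 0.02 TPM. Nrg3, a ligand of Erbb4 best known from the nervous system, and Areg, a ligand of Egfr, had no counts in either library, which allows up to 0.0772 CPM of the mouse total in replicate 1 and 0.0786 CPM in replicate 2. None of these 6 was detected. The 11 ligands summed to 8.90 TPM in replicate 1 and 8.82 TPM in replicate 2.

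Among the receptors, Erbb4 had the highest level in both libraries. Of that level, 2.50 TPM in replicate 1 and 2.08 TPM in replicate 2 came from Erbb4-205, on 164 and 133 counts. The longer Erbb4-202 had 1.58 and 2.21 TPM, and Erbb4-201 had 0.41 and 0.37 TPM. Erbb4-205 is annotated without a 3′ end, and the rank of Erbb4 rests in part on that annotation. Erbb4 (ENSMUSG00000062209.15, chromosome 1, 68032186 to 69108059, minus strand), the receptor that binds neuregulins and has an active kinase, was at 4.49 TPM in replicate 1 and 5.02 TPM in replicate 2 (4.755 ± 0.375), from 909 and 1070 counts. Erbb2 (ENSMUSG00000062312.5, chromosome 11, 98412470 to 98437716, plus strand), the partner receptor, was at 3.39 and 3.83 TPM (3.61 ± 0.311), from 488 and 548 counts. Both values were higher in replicate 2. Erbb3 (ENSMUSG00000018166.8, chromosome 10, 128567523 to 128589652, minus strand), which binds neuregulins but has little kinase activity and is a major docking receptor for PI3 kinase, was at 3.33 and 3.21 TPM (3.27 ± 0.0849), from 619 and 578 counts. It had the closest pair of values of the 10 genes.

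Egfr (ENSMUSG00000020122.16, chromosome 11, 16752203 to 16918158, plus strand), the receptor of Hbegf, Btc, Egf and Tgfa, had the widest spread among the receptors. Its level was 3.74 TPM in replicate 1 and 1.97 TPM in replicate 2 (2.855 ± 1.25), from 576 and 369 counts. It ranked second of the 4 receptors in replicate 1 and last in replicate 2. The 4 receptors summed to 14.95 and 14.03 TPM, which is 1.68 and 1.59 times the ligand sum, and 1.39 times in either library by the second quantification. Erbb4 made up 30.0% of the receptor sum in replicate 1 and 35.8% in replicate 2, Erbb2 22.7% and 27.3%, Erbb3 22.3% and 22.9%, and Egfr 25.0% and 14.0%.

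Cells other than cardiomyocytes also carry these receptors, and Schwann cells of cardiac nerves are known for Erbb3. The 6 Schwann cell markers summed to 5.52 TPM in replicate 1 and 4.83 TPM in replicate 2, and the lineage factor Sox10 had 0.46 and 0.57 TPM. The fibroblast markers summed to 234.9 and 243 TPM, the endothelial ones to 178 and 159 TPM, the endocardial ones to 32.2 and 30.3 TPM, the smooth muscle and pericyte ones to 208 and 189 TPM and the macrophage ones to 44.1 and 40.8 TPM. The 4 epithelial markers summed to 3.15 and 2.73 TPM, and Epcam had 1 and 0 counts. Which of these cells the receptor transcripts came from was not tested.

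Errfi1 (ENSMUSG00000028967.10, chromosome 4, 150853919 to 150868892, plus strand), also called Mig6, encodes a cytosolic protein that is induced by receptor signalling and blocks the kinase of Egfr and Erbb2. It had the highest level of the 10 genes in both libraries, with 5.02 TPM in replicate 1 and 7.06 TPM in replicate 2 (6.04 ± 1.44), from 457 and 598 counts. The second quantification gave 5.98 and 8.06 TPM.

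Transcripts of Erbb4 differ in 2 coding regions that change how the receptor works. The exons that differ there are shown because the transcript shares rest in part on them. In mm10, on the minus strand, the alternative coding exon 16 codes for the stretch just outside the membrane. Its 75-base version (chr1:68290243-68290317, in Erbb4-201 and Erbb4-202) gives the JM-a form, which Adam17 can cut. Its 45-base version (chr1:68290439-68290483, in Erbb4-205) gives the JM-b form, which it cannot. A 48-base exon (chr1:68043908-68043955), coding exon 26 of 28 in Erbb4-201 and skipped in Erbb4-202, gives the CYT-1 tail and holds codons for a YxxM motif, which PI3 kinase binds, and a PPxY motif. Capitals mark the exon and lower case the joined bases of the neighbouring exons, from GENCODE M21.
Erbb4 75-base exon: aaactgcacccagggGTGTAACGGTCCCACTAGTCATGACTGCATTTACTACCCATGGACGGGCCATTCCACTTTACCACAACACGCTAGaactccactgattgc
Erbb4 45-base exon: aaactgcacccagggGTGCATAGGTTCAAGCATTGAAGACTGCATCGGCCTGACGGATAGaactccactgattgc
Erbb4 48-base exon: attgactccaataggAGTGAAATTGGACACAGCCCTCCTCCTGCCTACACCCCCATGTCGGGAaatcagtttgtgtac

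Erbb4-205, the JM-b type transcript, was at 2.50 TPM in replicate 1 and 2.08 TPM in replicate 2. Erbb4-202, with the 75-base exon and without the 48-base exon, was at 1.58 and 2.21 TPM, and Erbb4-201, with both, at 0.41 and 0.37 TPM. The 45-base exon was thus in 55.7% of the TPM of these 3 transcripts in replicate 1 and in 44.6% in replicate 2. By the second quantification it was in 47.0% and 37.3%. The leading transcript was Erbb4-205 in replicate 1 and Erbb4-202 in replicate 2, in both quantifications. The 48-base exon was in 20.6% and 14.3% of the summed TPM of Erbb4-201 and Erbb4-202, and in 13.7% and 16.3% by the second quantification, so the libraries changed order. Erbb4-205 is annotated over 2196 bases with 19 coding exons and no 3′ end. Reads from exons further on can therefore only be given to the other 2 transcripts. The share of Erbb4-205, and with it the TPM of the gene, depends on that annotation.

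**Figure D2:**
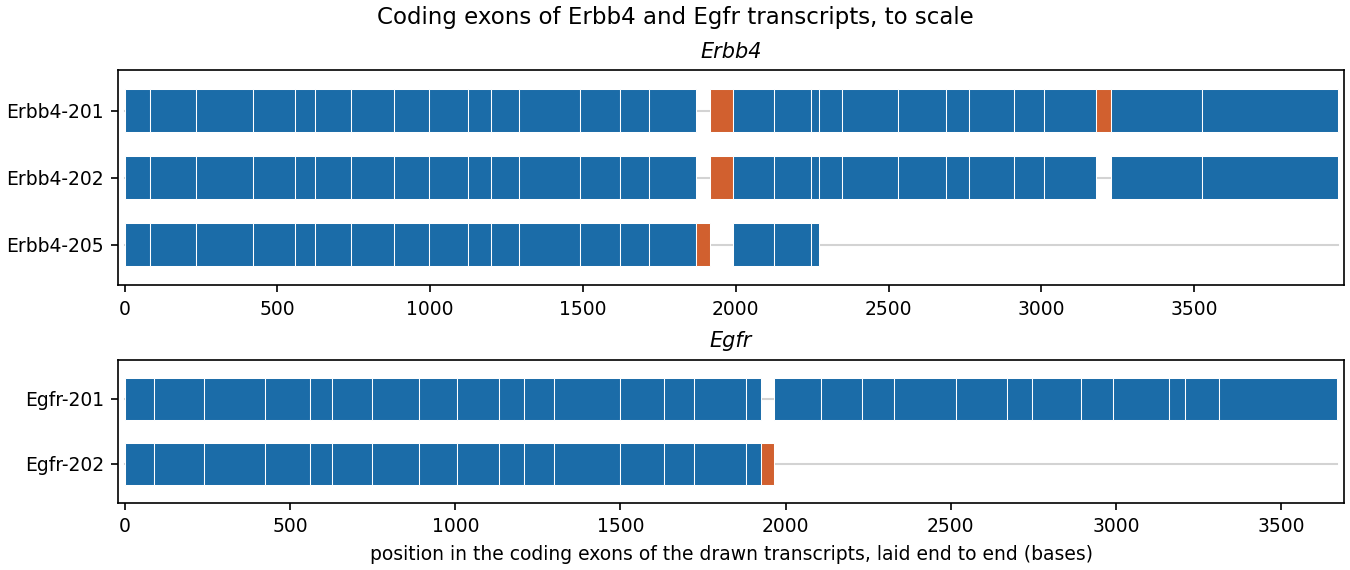
Coding exons of 3 Erbb4 and 2 Egfr transcripts laid end to end, with position in bases on the horizontal axis and 1 transcript per line. Orange marks the alternative exons of Erbb4 (75, 45 and 48 bases) and the 40 bases held by Egfr-202 alone; Erbb4-205 and Egfr-202 stop before the exon with the catalytic loop of the kinase.

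Egfr and Erbb2 each had a large share of a transcript that does not code for the full receptor. Some of the bases by which these transcripts are told apart are shown. Egfr-202 ends after 16 of the coding exons and holds 655 codons, against 1210 codons in Egfr-201, and lacks the catalytic loop of the kinase. Its last 40 coding bases (chr11:16887186-16887225, plus strand, mm10) are not in Egfr-201. Egfr-202 runs on to 16887923 without further coding bases, and that stretch is not shown. Erbb2-202, annotated as a processed transcript, keeps an intron of 81 bases (chr11:98433050-98433130, plus strand) with a stop codon in frame, and its 3′ end is 639 bases shorter than that of Erbb2-201. Capitals mark bases particular to each by the annotation and lower case the shared exon bases beside them.
Egfr-202 last coding bases: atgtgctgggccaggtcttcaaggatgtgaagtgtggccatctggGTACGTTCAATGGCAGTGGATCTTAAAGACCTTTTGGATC
Erbb2 retained intron: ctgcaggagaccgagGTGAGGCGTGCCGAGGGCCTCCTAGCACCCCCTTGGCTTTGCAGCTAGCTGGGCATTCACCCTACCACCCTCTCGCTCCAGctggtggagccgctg

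Egfr-201, the full receptor, was at 1.36 TPM in replicate 1 and 0.94 TPM in replicate 2, and the truncated Egfr-202 at 1.5 and 0.91 TPM. Egfr-202 took 40.1% and 46.0% of the gene, and 32.1% and 33.8% by the second quantification. Both transcripts were higher in replicate 1 in either quantification. Egfr-203, a fragment of 463 bases, had 0.61 TPM in replicate 1 and 0 in replicate 2 in the first quantification and 0 in both in the second. It makes the gene's TPM differ more between the libraries than its counts do.

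Erbb2-202, with the retained intron, took 56.5% of the gene in replicate 1 and 37.3% in replicate 2, and 51.7% and 40.4% by the second quantification. Erbb2-201, which codes for the full receptor of 1256 codons, was at 1.47 and 2.40 TPM. The leading transcript was therefore Erbb2-202 in replicate 1 and Erbb2-201 in replicate 2 in both quantifications. Erbb3 has a single annotated transcript. How much of the Erbb2 reads came from unspliced RNA, which total RNA libraries also hold, was not tested.

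The transcript of Errfi1 depended on the quantification. Errfi1-201 and Errfi1-202 start 1154 bases apart with first exons of 199 and 187 bases and share all 461 codons. The first quantification gave Errfi1-201 4.92 TPM in replicate 1 and 6.60 TPM in replicate 2, and Errfi1-202 0 in both. The second gave Errfi1-202 5.38 and 0.0790 TPM and Errfi1-201 0.0374 and 7.26 TPM. The start of Errfi1 transcription in replicate 1 therefore cannot be given from these tables, while the gene's summed level differed less between quantifications.

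Among the ligands, Hbegf-201 took 97.9% of Hbegf in replicate 1 and 93.1% in replicate 2, and Btc-201 91.2% and 90.2% of Btc. Nrg1-203, of 645 codons, led Nrg1 in both libraries and both quantifications, with 0.20 and 0.22 TPM in the first. By posterior mean TPM, Nrg1-209 had the largest share in replicate 1 with 17.5% of the gene, against 15% for Nrg1-203. Nrg1-209 had 0 counts in both libraries in either quantification, so this lead does not rest on reads given to it. Nrg1 transcripts that start near 32009 kb on chromosome 8 held 53 and 67.96 counts, those that start near 31918 kb 4 and 6.04, and those that start near 32883 kb none. Nrg4-213 led Nrg4 with 0.47 and 0.39 TPM, but the second quantification gave it 0 and 0.366 TPM and gave Nrg4-204 0.603 and 0.151 TPM. Nrg4-204 starts 43124 bases away and has the same number of codons, 115. Nrg2-202, a fragment of 630 bases, led Nrg2 with 0.36 and 0.27 TPM, with Nrg2-203 at 0.13 and 0.10 TPM, and in the second quantification Nrg2-205 led with 0.733 and 0.770 TPM. At 15 to 74 counts per gene these splits rest on few reads. In all, 7 of the 10 genes had the same leading transcript in both libraries in the first quantification, 6 in the second and 5 by posterior mean. Nrg1, Hbegf and Btc kept it across both quantifications, as did Erbb3, which has a single annotated transcript.

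**Figure D3:**
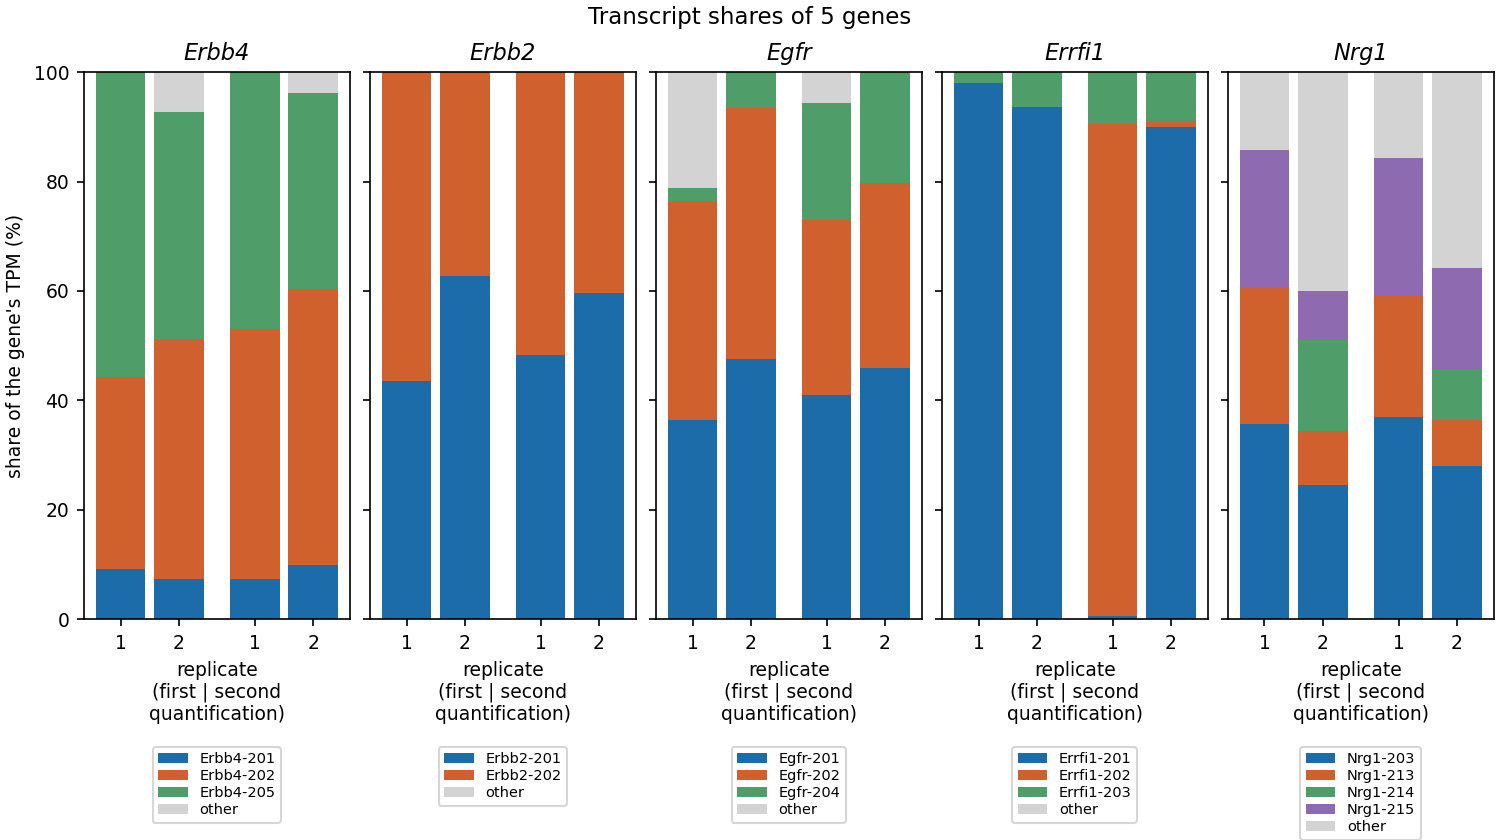
Share of each transcript in the TPM of its gene (percent, stacked to 100) for 5 genes, with replicate 1 left of replicate 2, and the first quantification left of the second. Erbb4-205 and Erbb2-202 have larger shares in replicate 1 in both quantifications, and Errfi1 moves to Errfi1-202 only in replicate 1 of the second quantification.

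The levels of the 2 libraries were then compared gene by gene, as replicate 1 over replicate 2. An exact two-sided binomial test on expected counts rounded to whole numbers was run against effective library sizes by the TMM method (trimmed mean of M values), and Benjamini-Hochberg adjustment covered the 13745 genes that had 50 or more counts in sum. It sets the reads of one library against those of the other, says nothing of conditions, has no replicate check, and its p-values measure counting error alone. At an adjusted p under 0.05 and at least a 2-fold ratio, 0 of the 9 genes tested were called, against 211 of all genes or 1.54%, of which 135 were higher and 76 lower in replicate 1. By the spike-in scale those were 83 and 167, and by library totals 165 and 61. With the same adjusted p at any fold, 4 of the 9 were called, against 3015 of all genes or 21.9%. Those were 1639 higher and 1376 lower in replicate 1, which became 366 and 7586 on the spike-in scale and 3138 and 731 by library totals. On the spike-in scale the median log2 ratio of all genes was -0.24, so a positive ratio below that size on the scale used here turns negative there. Nrg2, with 36 counts in sum, was not tested.

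Egfr was the gene called higher in replicate 1. Its log2 ratio was 0.54 (95% interval 0.35 to 0.73, adjusted p = 2.95e-07, exact binomial test). Erbb4, Errfi1 and Erbb2 were called lower in replicate 1. Erbb4 had a log2 ratio of -0.34 (-0.47 to -0.21, adjusted p = 3.44e-06, exact binomial test), and Errfi1 one of -0.49 (-0.67 to -0.31, adjusted p = 6.71e-07, exact binomial test). Erbb2 had -0.27 (-0.45 to -0.09, adjusted p = 0.0166, exact binomial test). Of the receptors whose kinase the Errfi1 protein blocks, Egfr thus differed in the opposite direction to Errfi1 and Erbb2 in the same direction. Whether these differences are related was not tested. The second quantification gave Egfr 0.54, Erbb4 -0.31, Errfi1 -0.49 and Erbb2 -0.25 on the log2 scale.

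The other 5 genes tested did not pass. Erbb3 had a log2 ratio of -0.00341, with an interval of -0.17 to 0.16, the narrowest of these 5. Hbegf had -0.23 (-0.46 to -0.01) and Nrg1 -0.48 (-1.003 to 0.04). Nrg4 had 0.77 (0.06 to 1.53, adjusted p = 0.1, exact binomial test) and Btc 0.67 (0.02 to 1.36, adjusted p = 0.137, exact binomial test), and both intervals reach past a 2-fold ratio. Nrg2 had 0.37 (-0.64 to 1.44). The median of the 9 was -0.23, against 0.000149 over all genes tested. When the spread between libraries was added, through a common dispersion estimated by edgeR over both as 1 group (biological coefficient of variation 0.113), 0 of the 9 passed an adjusted p of 0.05 and 1 passed an unadjusted one. That gene was Egfr, with an unadjusted p = 0.0328 by edgeR's exact test.

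**Figure D4:**
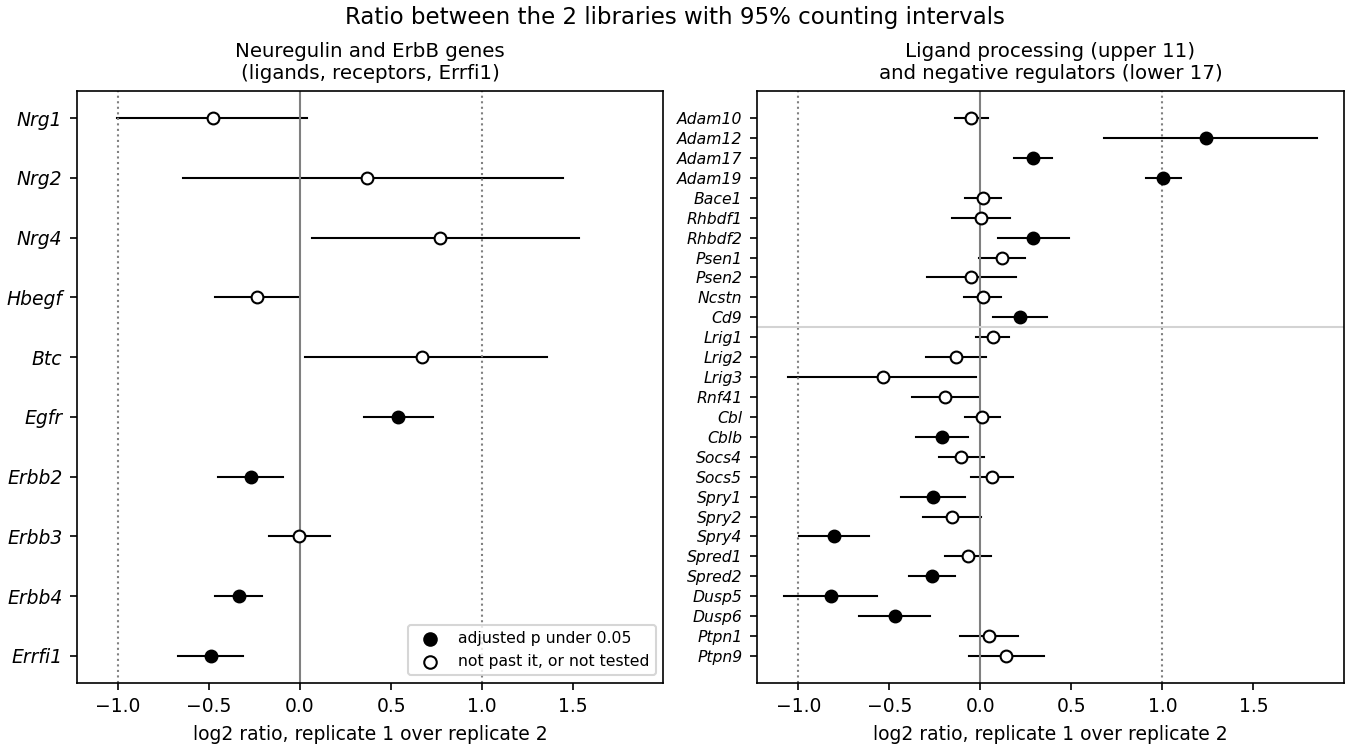
Log2 ratio of replicate 1 over replicate 2 (horizontal axis) for the 10 genes on the left and for 11 ligand processing genes and 17 negative regulators on the right, with 95% counting intervals as lines. Filled points have an adjusted p under 0.05 in the exact binomial test and dotted lines mark a 2-fold ratio; Egfr lies right of 0 and Erbb2, Erbb4 and Errfi1 left of it.

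Genes that process the ligands or carry the signal onward were for the most part higher than the 10 genes themselves. Of 71 such genes in 7 lists, the 6 other ligands included, 63 were detected, and the median of their mean levels was 11.6 TPM. Of the 67 tested, 2 were called at 2-fold, and 25, or 37.3%, at any fold, of which 16 were higher and 9 lower in replicate 1. These were 3 higher and 48 lower on the spike-in scale, and 26 and 7 by library totals. All genes tested gave 21.9% at any fold. The median log2 ratio of the 67 was 0.02. The 2 sets were not matched on counts per gene, on which the reach of the test depends.

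Both genes called at 2-fold belong to ligand processing, where 5 of 11 genes were higher in replicate 1 and none lower, with a median log2 ratio of 0.12. On the spike-in scale the list turned, with 2 higher, 5 lower and a median of -0.12, and by library totals 6 were higher and 0 lower. Adam19 and Adam12 were the 2 that were higher on all 3 scales. Adam19, a protease that cuts neuregulin 1 beta isoforms in cultured cells, was at 15.84 TPM in replicate 1 and 7.65 TPM in replicate 2. Its log2 ratio was 1.00 (0.91 to 1.10, adjusted p = 1.18e-97, exact binomial test), and it was also called at 2-fold with edgeR's common dispersion. Adam12, a protease of Hbegf and the lowest of the list, had 0.46 and 0.22 TPM, a log2 ratio of 1.24 (0.68 to 1.85, adjusted p = 6.02e-05, exact binomial test), and was not called with edgeR's dispersion. The other 3 of the 5, named after their values were seen, passed at smaller ratios. Adam17, the main protease of Hbegf, had 18.98 and 17.38 TPM (log2 ratio 0.29), its cofactor Rhbdf2 4.96 and 3.72 TPM (0.29), and the tetraspanin Cd9, a partner of the Hbegf precursor and the highest of the list, 23.81 and 19.71 TPM (0.22).

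Of 17 negative regulators, 0 were higher and 6 lower in replicate 1, none at 2-fold, with a median log2 ratio of -0.16. The counts were 0 and 16 on the spike-in scale, where the median was -0.40, and 1 and 4 by library totals. The highest was Lrig1, a membrane protein that lowers ErbB receptor amounts, at 15.45 TPM in replicate 1 and 13.31 TPM in replicate 2, and the lowest Lrig3 at 0.54 and 0.84 TPM. The other genes named here were chosen after their values were seen. Dusp5, a nuclear phosphatase of ERK, had 2.72 and 4.62 TPM (log2 ratio -0.82), and Spry4, an inhibitor of RAS signalling, 2.41 and 4.04 TPM (-0.80). Dusp6, the cytoplasmic ERK phosphatase, had 5.20 and 7.82 TPM (-0.47). Spred2, Spry1 and the ubiquitin ligase Cblb had -0.26, -0.26 and -0.21. Others of the 17 did not pass, among them Spry2 with -0.16 and Spred1 with -0.07. Errfi1 was also lower in replicate 1, with -0.49. Whether its difference is related to those of the negative regulators was not tested.

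Immediate early genes also differed between the libraries, with 4 of 9 lower and 2 higher in replicate 1. Nr4a1, a nuclear receptor, had 4.01 TPM in replicate 1 and 35.48 TPM in replicate 2, Atf3, a stress factor, 1.81 and 6.46 TPM, and Fos 3.81 and 8.77 TPM. Fosb went the other way, with 0.75 and 0.31 TPM. Egr1, a target of ERK, was at 3.54 and 3.48 TPM. The part of this difference in the values of Errfi1, Hbegf and the negative regulators was not tested.

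The directions in the intracellular lists depended on the scale. On the spike-in scale the adaptors had 0 higher and 11 lower, the PI3 kinase and AKT genes 1 and 7, the RAS and MAP kinase genes 0 and 7 and the chaperones 0 and 2, and the counts that follow are on the TMM scale. Of 15 adaptors 4 were higher and 2 lower in replicate 1, with a median log2 ratio of 0.02. The highest was Ptpn11, the phosphatase that carries receptor signals to RAS, at 74.61 TPM in replicate 1 and 59.95 TPM in replicate 2 (log2 ratio 0.26), and the lowest was the kinase Src at 1.58 and 1.75 TPM. The lower pair, named after their values were seen, were Gab1, the docking protein of Ptpn11, with -0.29 and the Erbb2-binding protein Erbin with -0.18. Of 9 PI3 kinase and AKT genes 3 were higher and none lower. Pik3r1, the regulatory subunit that docks on Erbb3, had 52.33 and 36.82 TPM (0.52, chosen after its values were seen), and the highest, Akt1, 82.03 and 66.35 TPM (0.23), with Pik3cb the lowest at 4.11 and 4.18 TPM. Of 10 RAS and MAP kinase genes 3 were higher and 1 lower, between Map2k2 at 44.83 and 40.75 TPM and Mapk7 at 2.54 and 2.05 TPM. Of 3 chaperones that hold the receptors in shape, Hsp90ab1 was the highest at 440.77 and 405.88 TPM and Hsp90aa1 the lowest at 56.64 and 49.16 TPM, and Hsp90aa1 was the gene of the 3 that passed at any fold, higher in replicate 1.

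Markers of fat and blood moved with replicate 1. All 5 brown adipocyte genes were higher there at any fold and 3 of them at 2-fold. Cox8b had the smallest log2 ratio, 0.06, and was the 1 that turned lower on the spike-in scale, where 4 stayed higher. Among the 3 at 2-fold was the uncoupling gene Ucp1, with 52.58 TPM in replicate 1 and 7.95 TPM in replicate 2. All 3 white adipocyte genes tested were also higher (2 on the spike-in scale), with the lipid droplet gene Plin1 at 15.28 and 4.45 TPM. All 4 erythroid genes were higher at 2-fold. Egfr was called higher in replicate 1 as well, and Nrg4, known from brown fat, had 48 and 26 counts, a difference that did not pass. The part of fat or blood in the values of Egfr, Nrg4, Btc and Adam19 was not tested.

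Genes that overlap members on the opposite strand bear on 2 of the 10, since the sources used here do not state whether counting used strand. Fbxo22, which overlaps the end of Nrg4, had 789 counts in replicate 1 and 681 in replicate 2, against 48 and 26 counts of Nrg4. Mien1, which overlaps the end of Erbb2 by a few bases, had 421 and 377 counts. Egfros, antisense to Egfr, had none in the first quantification.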

How the data were processed

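Total RNA-seq of 2 heart libraries, grouped as 1 by their labels, was read from the authors' tables. The submitters' description files name mm10 and GENCODE M21. Which programs were used is not given in the sources used here, nor are versions. The deposited expected counts are estimated reads per gene, not normalized, with shared reads divided between genes. The authors' TPM and posterior mean TPM scale by effective length. These columns are those RSEM writes and form the first quantification. The second is a deposited transcript table with the columns kallisto writes, whose estimated counts and TPM were summed here per gene. A C57BL/6J reference was used, and mismatches in CAST reads were not measured. Rows named by a number only (26248) and 97 spike-in rows were kept out of the tests, and 86 mouse genes absent from the second quantification were not compared there.

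The exact binomial test (scipy 1.17.1) used rounded expected counts and TMM effective library sizes (edgeR 4.0.16), with a log2 ratio of counts plus 0.5. Alternatives were DESeq2 1.42.0 size factors, library totals, spike-ins, the second quantification, no count filter and edgeR's exact test. On counts simulated for 13745 genes with Poisson counting error alone, the test was checked and recovered the ratios that had been set. The test assumes that same error, so the check does not cover spread between libraries beyond counting. Members, gene lists and the rule for named genes (all members, and per list the highest, the lowest and those called) were chosen with earlier results of these data known. A genome or protein table was not used here, and exon sequences come from the GENCODE M21 transcripts. The level of 1 marker gene is not reported here.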

Additional observations from a re-analysis of the deposited data

How the results depend on the processing

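Alternatives changed levels of low genes most. The summed receptor level of 14.49 TPM became 15.5 TPM in the second quantification and 15.4 TPM with the posterior mean, and Erbb4 made up 38.4% of the receptors by expected counts. Hbegf made up 43.2% of the ligands in the second quantification. Leaving out either replicate gave 14.03 to 14.95 TPM for the receptor sum, 30.0% to 35.8% for Erbb4 and 47.2% to 56.2% for Hbegf, and 6 to 7 members detected. The second quantification detected 8, with Nrg2 at 1.33 and Nrg4 at 1.59 TPM on average, and thresholds of 0.5 and 2 TPM gave 8 and 5. By posterior mean the levels were 1.35 TPM for Nrg1, 0.94 for Nrg2, 1.60 for Nrg4 and 0.85 for Btc. Members called at any fold were 4 with TMM, 7 on the spike-in scale, which shifts the median log2 ratio of all genes to -0.24, and 0 with edgeR's common dispersion, where 1 passed unadjusted. The ratio of Erbb3 turned to 0.0734 by library totals and 0.0219 in the second quantification. The calls lost were those of Erbb2 by library totals (-0.19) and of Erbb2, Erbb4, Egfr and Errfi1 with edgeR's dispersion, and Nrg1, Erbb3 and Hbegf were gained on the spike-in scale (-0.72, -0.25 and -0.48). Of 54 ratios of members under an alternative, 44 kept direction and call, 5 lost the call, 3 gained it and 2 turned. All genes called at 2-fold were 142 to 313, against 211. The causes were not tested. No paired analysis was possible because there is a single group. Depth limits Nrg1, Nrg2, Nrg4 and Btc, at 15 to 74 counts.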
